A study of Mus musculus with 7 samples.

Results

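The 8-week and 6-week gastrocnemius libraries of a growing-mouse muscle series were compared here, which is 5 of its 7 RNA-seq libraries and every library that the labels place at these ages. The gastrocnemius is a large calf muscle, and the series followed it from 4 weeks, before puberty, to 8 weeks, in early adulthood. Each library came from the muscle of 1 male mouse of the strain labelled C57Bl6/J, and there were 2 mice at 6 weeks and 3 at 8 weeks. The titles of the 8-week libraries carry the tag Ctl and those of the 4-week and 6-week libraries do not, and no genotype or agent is given for any library. Elsewhere in the study that tag marks littermates without CreER in tamoxifen work, but the sources do not say whether the 8-week RNA-seq mice belonged to such a cohort, so age cannot be told apart from anything else that came with the tag. The 2 libraries at 4 weeks entered the model to estimate the spread between mice and are given beside the results.

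Skeletal muscle fibers enlarge during postnatal growth, first with the addition of new nuclei from satellite cells and later mostly without it. Over the same weeks muscle silences a fetal program that includes imprinted growth genes and immature contractile proteins, and its connective tissue matures. A second layer of muscle transcripts follows the day rather than age. Immediate early genes respond within minutes to contraction, injury or handling, and genes driven by glucocorticoids and by FoxO factors follow feeding, fasting and stress.

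Few genes passed the test between 6 and 8 weeks, and most of those that did were lower at 8 weeks. Of 14976 genes with enough counts to test, 28 passed a 5% false discovery rate in edgeR's quasi-likelihood test, which is 0.187% of them. Of these, 23 fell (0.154%) and 5 rose (0.0334%). The genes that fell included the mTORC1 inhibitor Ddit4 (7.58-fold), the imprinted RNA H19 (3.81-fold), the FoxO target 8430408G22Rik (3.78-fold), the small GTPase Rhob (2.76-fold) and the transcription factor Cebpd (2.35-fold). The 5 genes that rose did so by 1.58-fold to 1.83-fold and included Tuba4a, an alpha tubulin, and Pdzrn3, a ubiquitin ligase of the neuromuscular junction. In all 28 the CPM ranges of the ages did not overlap. The choice of genes by p on the same values favors this, so it is not separate support. Of all tested genes, 14.9% were higher without overlap at 8 weeks and 13.6% were lower. The tested genes as a whole did not lean down: before adjustment, 6.38% were higher and 5.8% lower at p under 0.05. The median log2 fold change over all tested genes was 0.02 and the median size of a change was 0.16 on the log2 scale.

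**Figure D1:**
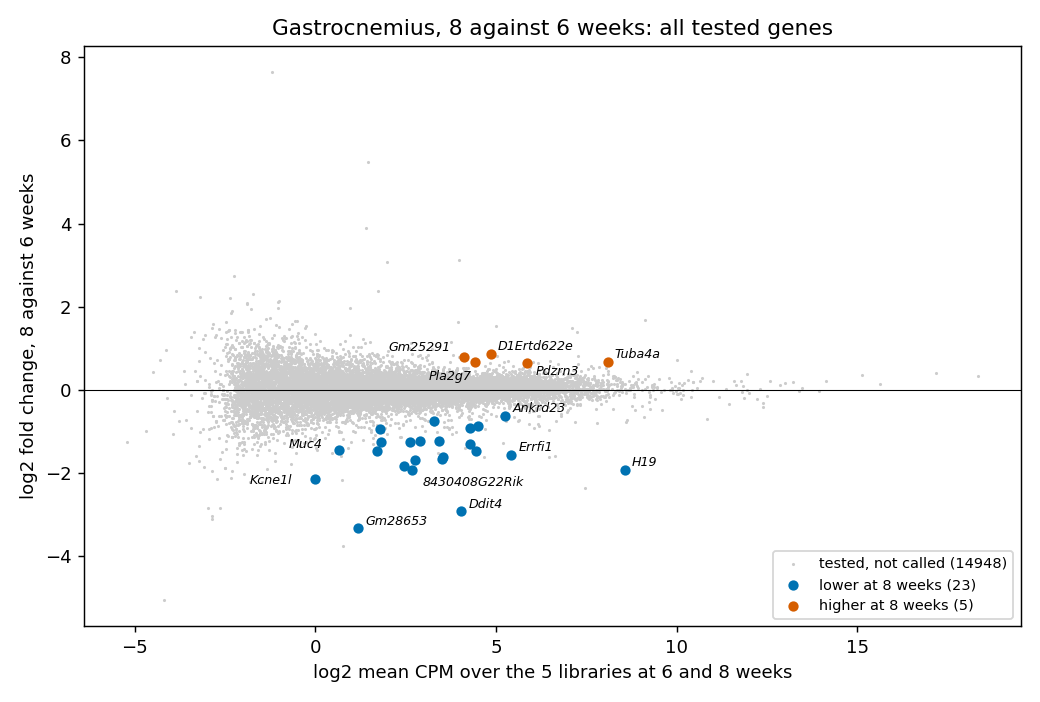
Log2 fold change from 6 to 8 weeks (vertical axis) against the log2 mean CPM over the 5 libraries (horizontal axis) for the 14976 tested genes, 1 point each. The 23 genes that fell (blue) reach -3.33 and include H19 at high level, while the 5 that rose (orange) lie between 0.66 and 0.87, and many grey points with larger changes at low level did not pass the test.

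Levels are given as CPM, the usual depth-scaled count, with TMM factors applied, so a level can be compared between libraries for 1 gene but not between genes of different length. The libraries held 30836057 to 41784144 counts. The 5 libraries were muscle by their markers, with a summed level of 17 fiber markers of 108700 to 111800 CPM at 6 weeks and 113700 to 130900 CPM at 8 weeks. The 8-week libraries differed from one another in composition: mitochondrial transcripts took 43.7% and 46.7% of the counts in replicates 1 and 3 but 31.1% in replicate 2, against 40.8% and 37.3% at 6 weeks. Their TMM factors were 0.888, 1.05 and 0.854, against 1.03 and 1.08 at 6 weeks. Scaling by library totals instead moved the median log2 fold change of all genes to -0.17, so the changes below are relative to the median gene. The spread of the log2 differences between 2 libraries (SD over genes) was 0.389 for the 6-week pair, 0.415 to 0.468 among 8-week libraries, and 0.438 to 0.486 between ages, so the ranges within and between ages overlapped.

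Among the genes that fell, 2 RNAs host microRNAs within their exons, so their annotated exons include the precursors, and the mature microRNAs were not measured. Gm28653 is a long noncoding RNA (chr1:20669882-20684298, plus strand) whose exons cover Mir206 and Mir133b, muscle-specific microRNAs, and H19 (chr7:142575529-142578143, minus strand) covers Mir675. The mature sequences are from RefSeq (GRCm38.p6), with the seed, bases 2 to 8, in capitals. None of the 6 seeds is shared.
mmu-miR-206-5p: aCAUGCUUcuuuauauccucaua
mmu-miR-206-3p: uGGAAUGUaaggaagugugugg
mmu-miR-133b-5p: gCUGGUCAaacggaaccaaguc
mmu-miR-133b-3p: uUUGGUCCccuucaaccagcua
mmu-miR-675-3p: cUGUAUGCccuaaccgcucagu
mmu-miR-675-5p: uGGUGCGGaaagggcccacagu

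Many of the other genes that fell are known as rapidly induced, so the letters of their promoters were searched. RefSeq's promoter windows (GRCm38.p6, 250 bases before to 50 after the start) were at hand for 15 of the 23 genes that fell (20 windows) and 3 of the 5 that rose. The motifs were the cAMP response element core TGACG, the full element TGACGTCA that contains it, the clock E-box CACGTG, the TATA box TATAAA and the RevErb and Ror element AGGTCA, each on both strands. Of the 20 windows of genes that fell, 30% held TGACG (29.8% of the promoters of tested genes), 5% TGACGTCA (2.9%), 5% CACGTG (9.61%), 20% TATAAA (7.44%) and 25% AGGTCA (12.5%). Among all 32851 promoter windows these shares were 20.8%, 1.79%, 7.15%, 13.6% and 16.3%. Windows of the same gene overlap, and the windows of genes that fell with TGACG belonged to Errfi1, Klf2 and Csrnp1 only, most of them to Csrnp1. A match is a description of letters, not a binding site. The windows of 3 early response genes with the most kinds of motif are shown with that of Ddit4, which had the smallest p and no match, motifs in capitals: Errfi1 (chr4:150854820-150855119, plus strand), Csrnp1 (chr9:119984693-119984992, minus strand), Gadd45g (chr13:51846425-51846724, plus strand) and Ddit4 (chr10:59951721-59952020, minus strand).
Errfi1: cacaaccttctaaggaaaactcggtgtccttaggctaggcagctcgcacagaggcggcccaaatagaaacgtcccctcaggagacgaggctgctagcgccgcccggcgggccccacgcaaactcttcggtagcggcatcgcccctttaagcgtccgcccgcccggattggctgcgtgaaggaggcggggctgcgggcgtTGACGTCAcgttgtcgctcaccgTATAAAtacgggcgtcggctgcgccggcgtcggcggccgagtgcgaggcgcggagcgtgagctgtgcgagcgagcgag
Csrnp1: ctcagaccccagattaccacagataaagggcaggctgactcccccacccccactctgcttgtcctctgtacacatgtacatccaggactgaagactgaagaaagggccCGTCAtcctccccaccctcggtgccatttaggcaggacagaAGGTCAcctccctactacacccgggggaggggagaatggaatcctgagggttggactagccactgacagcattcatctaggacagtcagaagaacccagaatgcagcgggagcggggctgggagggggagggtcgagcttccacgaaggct
Gadd45g: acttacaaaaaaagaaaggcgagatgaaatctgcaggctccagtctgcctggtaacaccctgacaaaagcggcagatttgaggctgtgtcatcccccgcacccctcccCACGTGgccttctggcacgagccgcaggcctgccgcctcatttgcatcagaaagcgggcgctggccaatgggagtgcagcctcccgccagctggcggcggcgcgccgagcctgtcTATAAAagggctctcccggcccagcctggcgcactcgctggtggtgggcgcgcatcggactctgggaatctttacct
Ddit4: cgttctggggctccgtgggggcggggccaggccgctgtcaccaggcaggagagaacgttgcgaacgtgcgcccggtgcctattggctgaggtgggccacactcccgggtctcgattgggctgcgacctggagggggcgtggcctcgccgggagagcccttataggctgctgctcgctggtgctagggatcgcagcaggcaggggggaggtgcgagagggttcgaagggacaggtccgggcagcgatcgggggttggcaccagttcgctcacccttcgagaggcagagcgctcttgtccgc

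In the Errfi1 window TGACGTCA is followed by TATAAA before the start, in Gadd45g CACGTG lies upstream of TATAAA, and in Csrnp1 TGACG, read on the other strand as CGTCA, lies upstream of AGGTCA. The AU-rich letters TATTTAT, of the kind that Zfp36 binds, were in the 3′ untranslated region of 31.6% of the 19 coding genes that fell, beside 30.8% of 12661 tested coding genes. The genes that fell had shorter 3′ untranslated regions (median 845 against 1412 bases), and within the length range of their own middle quartiles the shares were 36.4% of 11 genes and 20.6% of the tested genes. The genes that fell had shorter transcripts than the tested genes (median 2286 against 3285 bases) and higher GC content (54.8% against 49.1%).

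The gene with the smallest p was Ddit4. Ddit4 (REDD1) blocks mTORC1, the kinase complex that drives protein synthesis, and glucocorticoids, fasting and low oxygen induce it. Its level was 27.3 and 40.9 CPM at 6 weeks and 4.77, 3.88 and 4.85 CPM at 8 weeks. Both 6-week mice lay far above all 3 mice at 8 weeks, which were close together. Ddit4 fell by 2.92 on the log2 scale (SE 0.17, edgeR adjusted p = 2.1e-05, n = 2 and 3), and at 4 weeks it stood at 16.4 and 17.4 CPM.

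8430408G22Rik, which RefSeq calls Depp1 and which regulates autophagy downstream of FoxO factors, was at 11.8 and 10.99 CPM at 6 weeks and 3.94, 2.74 and 2.28 CPM at 8 weeks. The 4-week values of 11.9 and 12.8 CPM were at the 6-week level, so the step lay between 6 and 8 weeks. It fell by 1.92 (SE 0.18, edgeR adjusted p = 0.00121). Cebpd, a C/EBP transcription factor induced by glucocorticoids and cytokines, had the same shape, with 17.2 and 15.6 CPM at 6 weeks, 6.36, 7.95 and 6.68 CPM at 8 weeks, and 17.4 and 16.8 CPM at 4 weeks. It fell by 1.23 (SE 0.12, edgeR adjusted p = 0.00129). Gm38034, a transcript of unknown kind (chr3:52282241-52284309, plus strand), lies inside the span of Foxo1 on the same strand, so its reads cannot be separated from unspliced Foxo1 RNA. Its level was 7.89 and 11.5 CPM at 6 weeks and 2.37, 2.59 and 3.21 CPM at 8 weeks and fell by 1.84 (SE 0.19, edgeR adjusted p = 0.00232). Foxo1 itself, which encodes a FoxO factor that drives atrophy and fasting genes, had 14.3 and 23.2 CPM at 6 weeks and 12.7, 14.0 and 13.7 CPM at 8 weeks and was not called (log2 fold change -0.48, adjusted p = 0.294).

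The wider list of glucocorticoid and fasting response genes had 22 tested members, of which 3 fell (Ddit4, Cebpd and Errfi1), none rose and 19 were not called. Of all tested genes 0.154% fell. Its median log2 fold change was -0.30, beside 0.02 for all genes, and in 8 of 22 the 8-week levels lay below the 6-week levels without overlap, beside 13.6% of all tested genes. Tsc22d3 and Fkbp5, which are commonly used as glucocorticoid readouts, did not pass. Tsc22d3 was at 134 and 174 CPM at 6 weeks and 80.8, 96.8 and 140.5 CPM at 8 weeks (log2 fold change -0.54, adjusted p = 0.34), and Fkbp5 at 17.6 and 29.1 CPM and 13.4, 17.6 and 18.2 CPM (-0.52, adjusted p = 0.31). For both genes replicate 3 was the highest 8-week library and overlapped the 6-week range. Without replicate 2 of 8 weeks the list median was -0.39 and edgeR called 4 of 22 lower, beside 53 of 14890 tested genes in that fit. Without replicate 3 the list median was -0.45 and edgeR called 7 of 22 lower, beside 52 of 14848 tested genes in that fit. Tsc22d3 (adjusted p = 0.0635) and Fkbp5 (adjusted p = 0.242) were still not called there. DESeq2's Wald test on all libraries also called 7 of the list lower, beside 111 of 11426 tested genes. Of the 24 AMPK, mTOR and TSC genes, Ddit4 alone was called, and the median was -0.03. Of 25 autophagy and lysosome genes, 8430408G22Rik alone was called, with a median of 0.02. Among the 19 atrophy ubiquitin ligases and FoxO factors none was called, and the median was -0.00. Fbxo32 (atrogin-1) was higher at 197, 181 and 184 CPM than the 128 and 84.7 CPM of 6 weeks without passing (0.82, edgeR adjusted p = 0.062). DESeq2's Wald test called it higher (adjusted p = 4.01e-05).

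**Figure D2:**
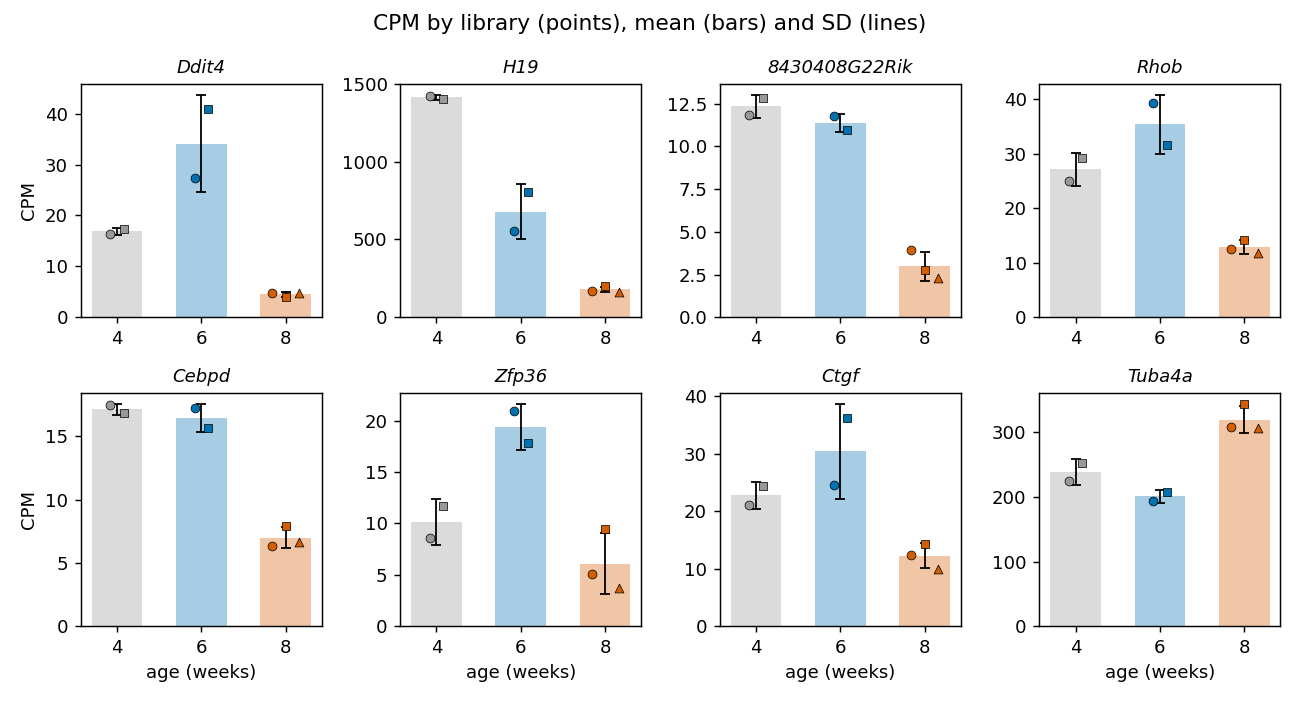
CPM of 8 called genes by age, with 1 point per library, bars for the mean and lines for the SD (2, 2 and 3 mice at 4, 6 and 8 weeks). Ddit4 peaks at 6 weeks, H19 steps down at both intervals, 8430408G22Rik and Cebpd are level from 4 to 6 weeks and lower at 8, and Tuba4a is highest at 8 weeks.

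Of the imprinted growth genes, H19 alone was called by edgeR. H19 is a maternally expressed noncoding RNA that is abundant in fetal muscle. It was at 554 and 803 CPM at 6 weeks and 170, 200 and 164 CPM at 8 weeks, after 1425 and 1401 CPM at 4 weeks. The ages formed 3 separate levels with no overlap. It fell by 1.93 (SE 0.15, edgeR adjusted p = 0.000321) and had also been called lower from 4 to 6 weeks (-1.06, adjusted p = 0.00812). The list of imprinted growth genes had 18 tested members, of which H19 fell and 17 were not called by edgeR. Of all tested genes 0.154% fell. DESeq2's Wald test called 5 of the list lower, beside 111 of 11426 tested genes. The median of the list was -0.31, and 7 of 18 were lower without overlap, beside 13.6% of all tested genes. Igf2, the growth factor next to H19, was at 9.38 and 13.5 CPM at 6 weeks and 7.07, 6.19 and 7.12 CPM at 8 weeks (-0.75, adjusted p = 0.138). Cdkn1c, a cyclin-dependent kinase inhibitor, was not called by edgeR either (-0.77, adjusted p = 0.168), nor were the noncoding RNAs Meg3 (-0.59, adjusted p = 0.0989) and Rian (-0.66, adjusted p = 0.17). DESeq2's Wald test called Igf2 (adjusted p = 0.00916), Cdkn1c (0.0105), Meg3 (0.0156) and Rian (0.0153) lower.

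Embryonic and fetal muscle genes, contractile and fusion genes of immature fibers, had 10 tested members and none was called. Their median was -0.44, with 4 of 10 lower without overlap (13.6% of all tested genes). Actc1, the cardiac actin of fetal muscle, was at 357 and 667 CPM at 6 weeks and 301, 299 and 303 CPM at 8 weeks (-0.77, adjusted p = 0.162). All 3 mice at 8 weeks were nearly equal, and the 6-week mice differed. Gm28653, the host of Mir206 and Mir133b, was at 2.82 and 7.08 CPM at 6 weeks and 0.243, 0.277 and 0.995 CPM at 8 weeks. It fell by 3.33 (SE 0.50, edgeR adjusted p = 0.0287), the largest called change, on 91 and 264 counts against 9, 9 and 31.

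Zfp36, Gadd45g and Csrnp1, of the immediate early list, and Errfi1, of the glucocorticoid and fasting list, were among the genes that fell. Zfp36 (tristetraprolin) binds AU-rich messenger RNAs and speeds their decay. Its level was 21.0 and 17.8 CPM at 6 weeks and 5.12, 9.43 and 3.76 CPM at 8 weeks and fell by 1.67 (SE 0.28, edgeR adjusted p = 0.0461). Gadd45g, a stress and differentiation gene, was at 20.7 and 18.1 CPM and then at 4.34, 7.67 and 7.16 CPM and fell by 1.61 (SE 0.23, edgeR adjusted p = 0.0213). In both genes replicate 2 was the highest 8-week library, still below the 6-week libraries. Csrnp1, a nuclear protein first described as induced by AXIN1, was at 6.47 and 4.21 CPM and then at 1.54, 2.25 and 2.02 CPM and fell by 1.46 (SE 0.21, edgeR adjusted p = 0.0254). Errfi1 (Mig6), a feedback inhibitor of the EGF receptor, was at 90.8 and 51.0 CPM and then at 22.1, 31.4 and 18.3 CPM and fell by 1.57 (SE 0.23, edgeR adjusted p = 0.0287). For Errfi1 and Csrnp1 the 6-week mice differed from each other more than the 8-week mice did.

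The list of immediate early genes had 25 tested members, of which Zfp36, Csrnp1 and Gadd45g fell, none rose and 22 were not called. Of all tested genes 0.154% fell. Its median was -0.89, 23 of 25 log2 fold changes were negative, and 12 of 25 were lower without overlap, beside 13.6% of all tested genes. Relative to the mean of all 7 libraries, the median member stood at 0.73 and 0.35 on the log2 scale at 6 weeks and at -0.81, 0.21 and -0.80 at 8 weeks, so replicate 2 was close to the 6-week level and replicates 1 and 3 were not. Without replicate 2 the median was -1.31 and 8 members were called lower, beside 53 of 14890 tested genes in that fit. That larger fall follows from leaving out the highest 8-week library. Without replicate 3 the median was -0.62 and 4 members were called lower, beside 52 of 14848 tested genes in that fit. With replicate 2 as the only 8-week library the median was -0.24. Egr1, a transcription factor of this class, shows the split with 34.8 and 21.6 CPM at 6 weeks and 7.31, 21.5 and 3.02 CPM at 8 weeks (-1.41, adjusted p = 0.317). Fosb, a Fos family factor, was at 10.65 and 23.8 CPM at 6 weeks and 2.48, 15.6 and 0.0963 CPM at 8 weeks (-1.51, adjusted p = 0.516). Nr4a1, a nuclear receptor induced by contraction, was nearer the threshold at 101 and 86.1 CPM and 40.4, 56.7 and 50.7 CPM (-0.93, edgeR adjusted p = 0.052). DESeq2's Wald test called Nr4a1 lower (adjusted p = 7.19e-06). It called 5 of the list lower, beside 111 of 11426 tested genes.

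Of the mechanosensitive genes, 3 fell. Rhob, a small GTPase of endosomes and the actin cytoskeleton, was at 39.3 and 31.6 CPM at 6 weeks and 12.6, 14.2 and 11.7 CPM at 8 weeks and fell by 1.46 (SE 0.13, edgeR adjusted p = 0.000727). Klf2, a transcription factor that endothelial cells induce under flow, was at 14.3 and 9.06 CPM and then at 2.80, 5.02 and 2.98 CPM and fell by 1.69 (SE 0.24, edgeR adjusted p = 0.0215). Ctgf (Ccn2), a matricellular protein and YAP target, was at 24.6 and 36.2 CPM and then at 12.5, 14.3 and 9.98 CPM and fell by 1.31 (SE 0.17, edgeR adjusted p = 0.0147). Rhob was tight within both ages, while Klf2 and Ctgf differed between the 6-week mice in opposite directions. These 3 were the called members of 16 mechanosensitive genes, whose median was -0.10, beside 0.154% of all tested genes that fell. The list was chosen with earlier results of these data known. The related Cyr61 was at 21.3 and 14.7 CPM and then at 7.69, 13.3 and 7.83 CPM and was not called by edgeR (-0.91, adjusted p = 0.156). DESeq2's Wald test called Cyr61 lower (adjusted p = 0.00551).

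Id1, a target of BMP signaling that holds back differentiation factors, was at 5.01 and 5.71 CPM at 6 weeks and 1.75, 2.80 and 2.25 CPM at 8 weeks and fell by 1.25 (SE 0.20, edgeR adjusted p = 0.0317). It was the only called member of 33 myostatin, activin and BMP pathway genes, whose median was 0.14. Of all tested genes 0.154% fell. Spsb1, a SOCS-box adaptor of a ubiquitin ligase, was at 10.4 and 8.50 CPM and then at 4.18, 3.94 and 3.76 CPM and fell by 1.25 (SE 0.14, edgeR adjusted p = 0.00341). In Spsb1 the 3 mice at 8 weeks were nearly equal. Markers of endothelial cells, which also express Klf2 and Id1, summed to 478 to 496 CPM at 6 weeks and 518 to 548 CPM at 8 weeks, and none of 18 was called. In bulk muscle, fewer cells of a type and less RNA per cell cannot be told apart.

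The remaining genes that fell belong to fibers, cilia, membranes and interferon-inducible families. Dupd1, a dual-specificity phosphatase of muscle, was at 24.1 and 30.1 CPM at 6 weeks and 12.9, 15.3 and 14.9 CPM at 8 weeks and fell by 0.92 (SE 0.12, edgeR adjusted p = 0.0141). Ankrd23, an ankyrin repeat protein that binds titin, was at 49.0 and 48.3 CPM and then at 32.2, 32.2 and 30.1 CPM and fell by 0.63 (SE 0.10, edgeR adjusted p = 0.0317), the smallest called change. It was the only one of 31 sarcomere scaffold and Z-disc genes to be called, beside 0.154% of all tested genes that fell. The exons of Ankrd23 overlap Gm42417 on the same strand. Ift27, a small GTPase of intraflagellar transport, was at 4.67 and 4.99 CPM and then at 2.89, 2.37 and 2.31 CPM and fell by 0.93 (SE 0.15, edgeR adjusted p = 0.0317), after 8.12 CPM on average at 4 weeks. In all of these the levels within an age were close.

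Kcne1l, an accessory subunit of potassium channels, was at 1.45 and 2.23 CPM at 6 weeks and 0.378, 0.462 and 0.417 CPM at 8 weeks, after 6.58 and 6.29 CPM at 4 weeks. It fell by 2.14 (SE 0.25, edgeR adjusted p = 0.00638) on counts of 47 and 83 against 14, 15 and 13. Muc4, a membrane mucin, was at 2.60 and 2.47 CPM and then at 0.971, 0.708 and 1.12 CPM and fell by 1.44 (SE 0.23, edgeR adjusted p = 0.0317), and at 4 weeks it was at 1.04 and 0.987 CPM. Muc4 was thus high at 6 weeks only, and Kcne1l stepped down over both intervals. Ifi205, of the interferon-inducible p200 family, was at 8.85 and 13.7 CPM and then at 5.04, 4.84 and 4.65 CPM and fell by 1.22 (SE 0.17, edgeR adjusted p = 0.0194). The list of 30 interferon response genes had no called member and a median of -0.11. Ifi205 has close relatives in a gene cluster whose reads the counting could split. Gm4841 fell by 0.74 (edgeR adjusted p = 0.0319) and Gm14236, an antisense transcript within Ripor3, by 0.87 (edgeR adjusted p = 0.0291).

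Of the 5 genes that rose, Tuba4a had the highest level, at 194 and 208 CPM at 6 weeks and 308, 344 and 307 CPM at 8 weeks, after 225 and 253 CPM at 4 weeks. It rose by 0.67 (SE 0.11, edgeR adjusted p = 0.0317), and all 3 mice at 8 weeks lay above all 4 younger mice. Pdzrn3, which binds the receptor kinase MuSK at the neuromuscular junction, was at 45.8 and 40.5 CPM and then at 67.7, 74.5 and 61.9 CPM, a rise of 0.66 (SE 0.11, edgeR adjusted p = 0.0461). It had also been called higher from 4 to 6 weeks (0.73, adjusted p = 0.0093), so its level increased across both intervals. The list of 21 neuromuscular junction and denervation genes had no called member and a median of 0.01.

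Pla2g7, the secreted enzyme that degrades platelet-activating factor, was at 17.2 and 14.7 CPM at 6 weeks and 25.8, 25.1 and 25.2 CPM at 8 weeks, a rise of 0.67 (SE 0.11, edgeR adjusted p = 0.0487). The 3 mice at 8 weeks were nearly equal, and it had been called higher from 4 to 6 weeks too (0.48, adjusted p = 0.0433). D1Ertd622e was at 19.2 and 19.3 CPM and then at 35.6, 29.8 and 40.3 CPM, a rise of 0.87 (SE 0.13, edgeR adjusted p = 0.0296). Gm25291, a small nucleolar RNA of 144 bases inside Sec24a on the same strand, was at 12.5 and 11.5 CPM and then at 22.3, 22.02 and 18.2 CPM, a rise of 0.80 (SE 0.12, edgeR adjusted p = 0.0291), and its reads cannot be separated from unspliced Sec24a RNA. With library totals in place of TMM factors, or with the 5 libraries fitted alone, Tuba4a, Pdzrn3, Pla2g7 and Gm25291 were no longer called.

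**Figure D3:**
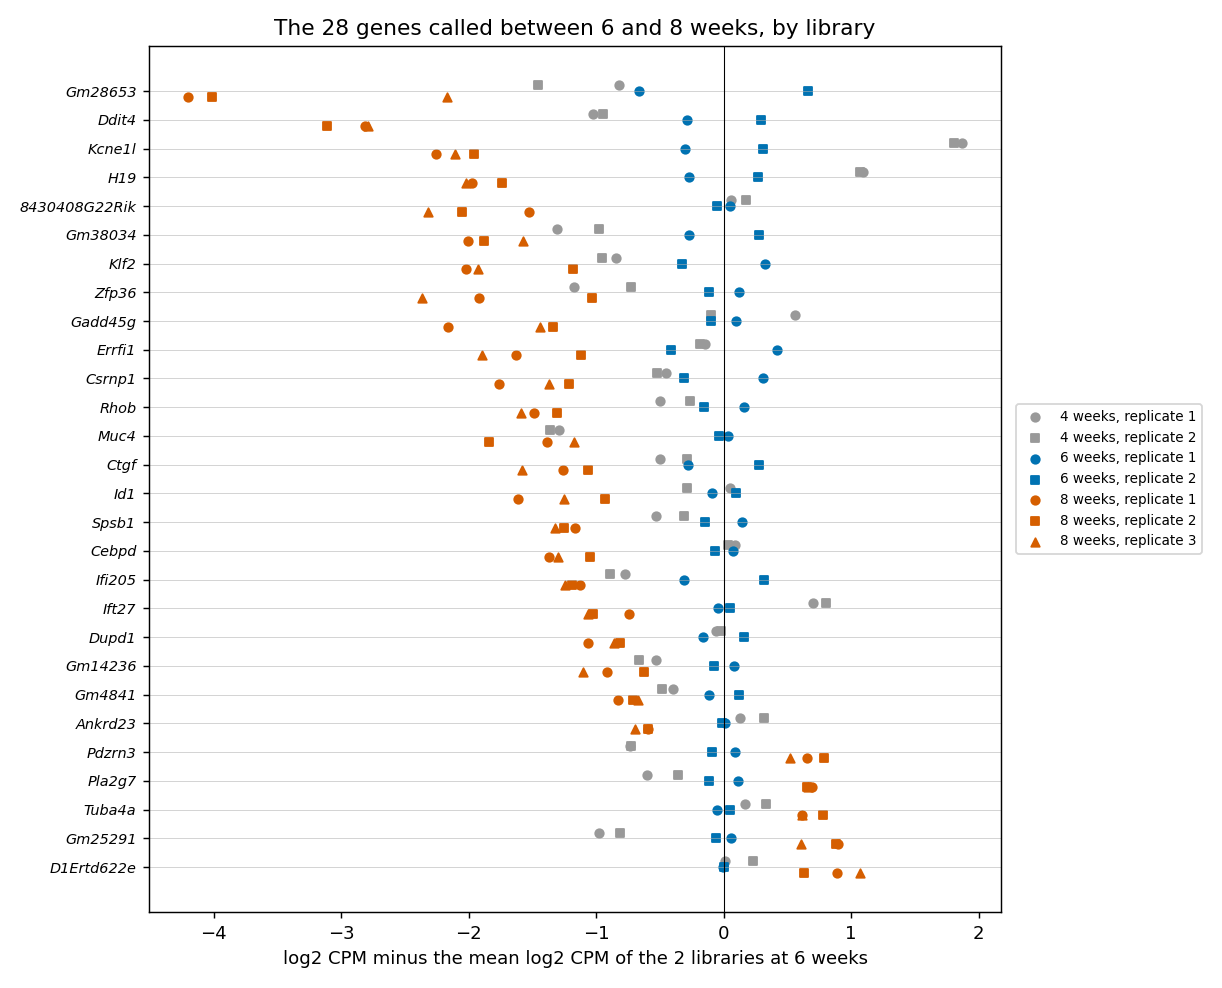
Log2 CPM of the 28 called genes (rows) in each of the 7 libraries, relative to the mean of the 2 libraries at 6 weeks. The 8-week points lie left of both 6-week points for the 23 genes that fell and right of them for the 5 that rose, replicate 2 (orange squares) is the highest 8-week library in 13 of the 23, and the 4-week points show which genes peaked at 6 weeks.

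How firmly these calls stood differed between genes. Ddit4, H19, 8430408G22Rik, Gm38034, Rhob, Spsb1 and Cebpd stayed called in each fit that left out 1 of the 5 libraries, with a highest adjusted p of 0.0329 (Spsb1). The other 21 lost the call without at least 1 library. Without replicate 2 of 6 weeks the count of called genes was 10, without replicate 1 of 6 weeks 21, without replicate 1 of 8 weeks 10, without replicate 2 of 8 weeks 67 and without replicate 3 of 8 weeks 77. The highest adjusted p over these fits was 0.0779 for Kcne1l, 0.106 for Gadd45g, 0.12 for Klf2, 0.144 for Errfi1 and Csrnp1, 0.158 for Ctgf and Ifi205, 0.166 for Gm14236, 0.174 for Dupd1 and 0.199 for Zfp36. For Muc4, Gm28653, Ankrd23, D1Ertd622e, Tuba4a, Ift27, Id1, Gm25291, Gm4841, Pla2g7 and Pdzrn3 it lay between 0.22 and 0.489. No gene of the 28 changed direction in any of these fits.

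**Figure D4:**
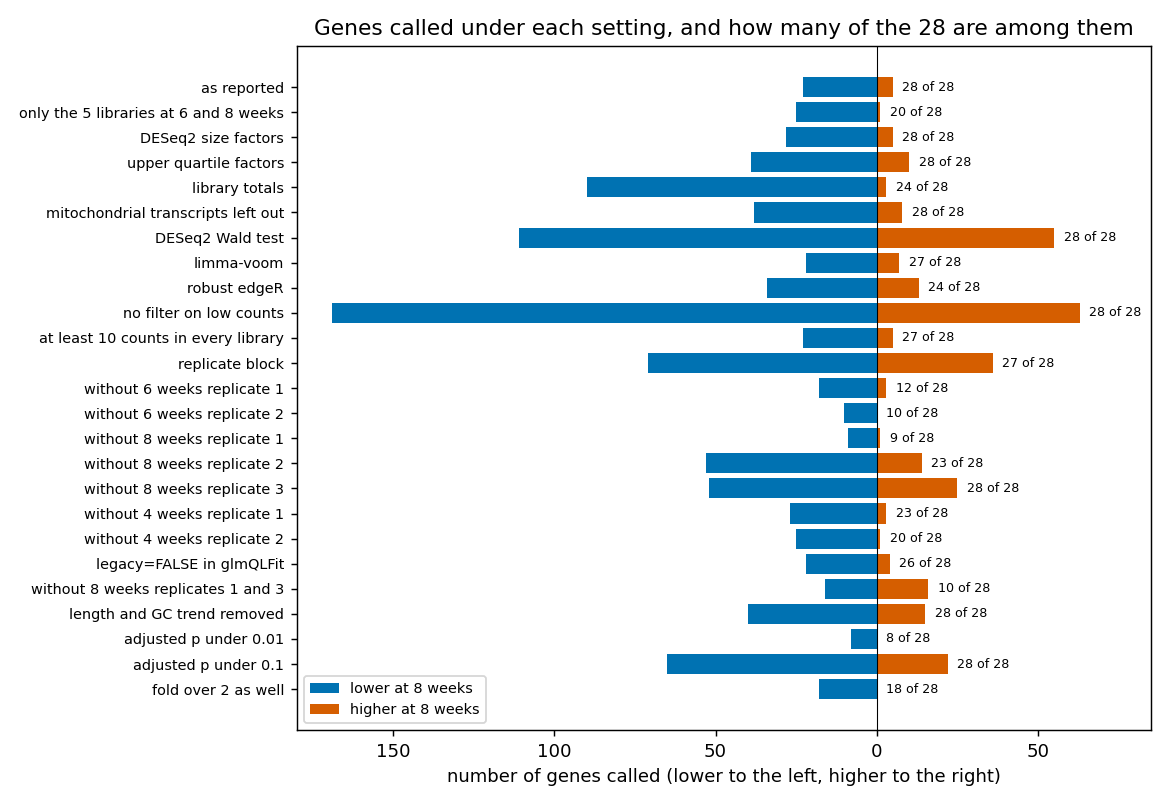
Number of genes called between 6 and 8 weeks under each setting (rows), lower at 8 weeks to the left and higher to the right, with the number of the 28 genes that were among them at the end of each bar. As reported there were 23 lower and 5 higher genes, without single 6-week or 8-week libraries the total ran from 10 to 77, and in every setting shown except the 1 without both replicates 1 and 3 of 8 weeks more genes were lower than higher.

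Slow fiber genes were the group with the largest median change after the immediate early genes, among the lists described here. No member was called by edgeR. DESeq2's Wald test on the same libraries called 5 of the 15 lower, beside 111 of 11426 tested genes. All 15 tested members had negative log2 fold changes, with a median of -0.63, and 12 were lower without overlap, against 13.6% of all genes. Tnni1, the slow troponin I, was at 19.2 and 23.7 CPM at 6 weeks and 7.85, 15.8 and 8.18 CPM at 8 weeks (-1.02, adjusted p = 0.147). Myh7, the slow myosin heavy chain, was at 139 and 128 CPM and then at 54.4, 114 and 69.4 CPM (-0.75, adjusted p = 0.286), and Atp2a2, the slow calcium pump, at 147 and 136 CPM and then at 79.6, 117 and 77.8 CPM (-0.63, adjusted p = 0.168). In each of them replicate 2 lay well above the other 8-week mice and just below the 6-week mice. Relative to all libraries the median member was at 0.18 and 0.26 on the log2 scale at 6 weeks and -0.61, 0.03 and -0.58 at 8 weeks. Replicate 2 was the highest 8-week library for this list, so a larger fall without it follows from the choice of library. Without replicate 2 the median was -0.85 and edgeR called 7 of 15 lower, beside 53 of 14890 tested genes in that fit. Without replicate 3 the median was -0.52 and none was called. Tnni1 (-1.44, adjusted p = 0.00566) and Atp2a2 (-0.86, adjusted p = 0.0139) were among the 7 called without replicate 2. When any other single library of 6 or 8 weeks was left out, edgeR called neither (highest adjusted p = 0.713 and 0.642). With replicate 2 as the only 8-week library the median was -0.27. The TMM factor of replicate 2 (1.05) was likewise close to those at 6 weeks (1.03 and 1.08). Its mitochondrial share (31.1%) lay below those of the other 8-week libraries and of both 6-week libraries. The part of either in this pattern was not tested.

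No list of fast fiber genes was tested, and the fast myosins are given one by one. Myh4, the fast IIB myosin that dominates this muscle, was at 31306 and 30744 CPM at 6 weeks and 37877, 42291 and 38671 CPM at 8 weeks (0.35, adjusted p = 0.317), and its 8-week levels lay above the 6-week levels without overlap. Myh1, the IIX myosin, and Myh2, the IIA myosin, were not called (-0.17, adjusted p = 0.668, and 0.04, adjusted p = 0.947). Of the 8 myosin heavy chains none was called and the median was -0.11. The 30 fatty acid uptake and oxidation genes had a median of -0.21 with 16 lower without overlap. The 40 nuclear genes of the respiratory chain had -0.16 with 21 lower without overlap. Of all tested genes 13.6% were lower without overlap, and neither list had an edgeR call. Fabp3, the heart and slow muscle fatty acid binding protein, was at 89.9 and 103 CPM at 6 weeks and 44.3, 66.1 and 53.7 CPM at 8 weeks (-0.82, edgeR adjusted p = 0.0564). DESeq2's Wald test called Fabp3 lower (adjusted p = 2.67e-05). With replicate 2 as the only 8-week library the median of the respiratory chain genes was -0.02.

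**Figure D5:**
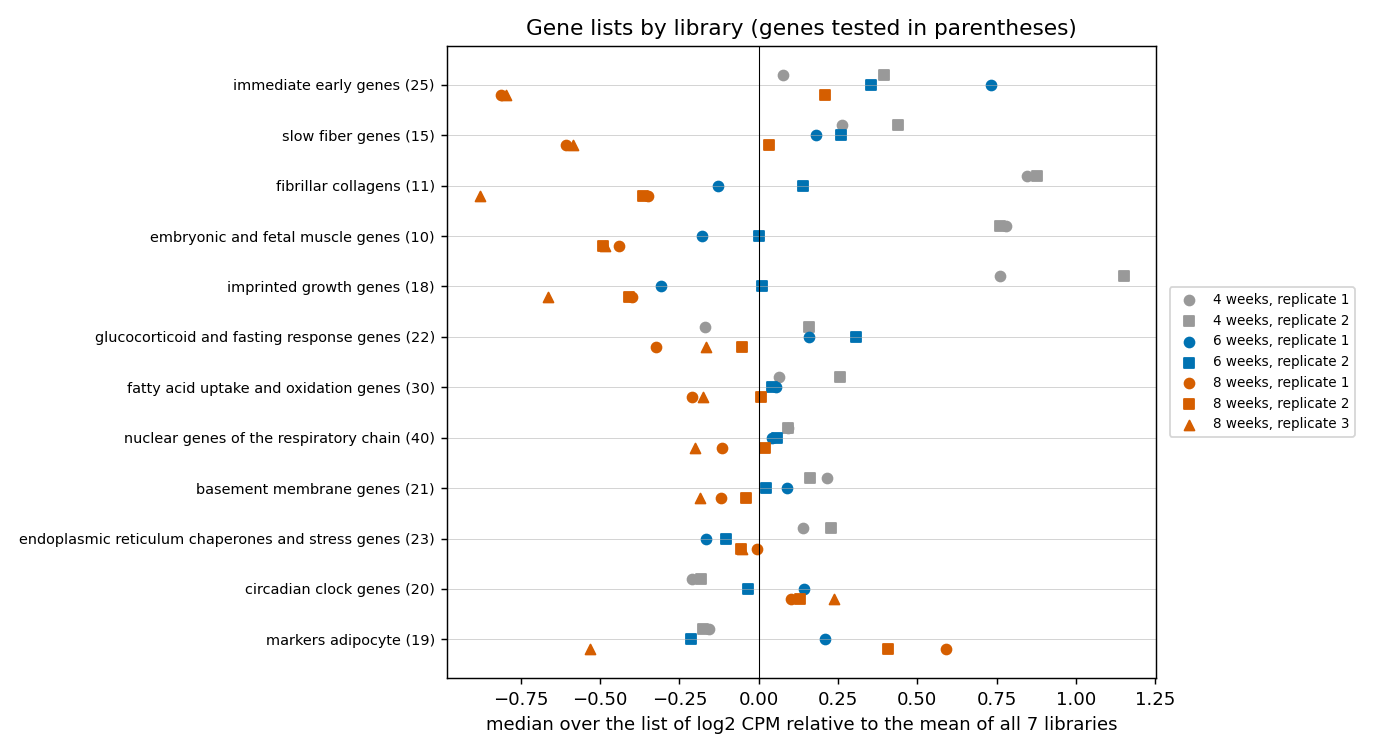
Median over each gene list (rows, number of tested genes in parentheses) of log2 CPM relative to the mean of all 7 libraries, 1 point per library. For immediate early and slow fiber genes the 8-week replicate 2 (orange square) lies near the 6-week libraries while replicates 1 and 3 lie far left, and for fibrillar collagens all 3 libraries of 8 weeks lie left of both at 6 weeks.

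Fibrillar collagens had 11 tested members, all with negative log2 fold changes, a median of -0.49, 7 lower without overlap (13.6% of all tested genes) and none called by edgeR. DESeq2's Wald test called 4 of them lower, beside 111 of 11426 tested genes. Col3a1 was at 619 and 797 CPM at 6 weeks and 505, 492 and 350.2 CPM at 8 weeks (-0.66, adjusted p = 0.145). Col1a2 was at 459 and 657 CPM and then at 450.1, 443 and 294 CPM (-0.49, adjusted p = 0.34). The collagens were lowest in replicate 3, where the median fibrillar collagen stood at -0.88 relative to all libraries, against -0.35 and -0.36 in replicates 1 and 2 and -0.13 and 0.14 at 6 weeks. Markers of some other cells were also low there. The median relative level of 19 fibroblast and fibro-adipogenic progenitor markers was -0.41 in replicate 3 against -0.02 to 0.03 in the other 4 libraries. For 13 tenocyte markers it was -0.43 against -0.38 to -0.01, and for 16 macrophage markers -0.47 against -0.20 to 0.07. Other markers were less so or not low: 18 endothelial markers stood at -0.15 against -0.08 to 0.02, and 16 smooth muscle and pericyte markers at -0.03 against -0.11 to 0.09. The 15 Schwann cell markers, at 0.04, were highest in replicate 3. Without replicate 3 the median of the fibrillar collagens was -0.34, and the part of other cell types in the result was not tested. Col5a1, which seeds fibrils, was closest to the threshold (-0.49, adjusted p = 0.062). Basement membrane genes had a median of -0.18 over 21 members, 11 lower without overlap and none called. Other genes that the study names from its RNA data were not called from 6 to 8 weeks: Col6a1 -0.24 (adjusted p = 0.497), Col6a2 -0.24 (0.346), Col11a1 -0.26 (0.642), the collagen cross-linker Loxl2 -0.31 (0.342), the class IIa deacetylase Hdac4 -0.04 (0.91), the calcium release channel Ryr1 0.22 (0.655) and the satellite cell factor Pax7 0.01 (0.989), all as log2 fold changes with adjusted p in parentheses. The 24 satellite cell and myogenic regulator genes had a median of -0.12 and no call.

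The interval from 4 to 6 weeks, tested in the same model, had 1034 called genes (6.9%), of which 471 (3.15%) were higher and 563 (3.76%) lower at 6 weeks. The intervals share the 6-week libraries, so they are set side by side only. Of the 23 genes that fell from 6 to 8 weeks, 16 had a positive log2 fold change from 4 to 6 weeks, 5 of them called higher there, and 3 were called lower in both intervals (H19, Kcne1l and Ift27). Ddit4 was called higher from 4 to 6 weeks (1.02, adjusted p = 0.00965) before it fell. The test of the difference between the changes called 14 genes (0.0935%), 6 of them among the 28: Ddit4 (adjusted p = 0.000227), Gm38034 (0.00878), Rhob (0.0173) and Muc4, Spsb1 and Ifi205 (0.0363 each). Since a high value of a 6-week mouse enters both changes with opposite sign, these differences rest on the 2 mice of 6 weeks.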

How the data were processed

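RNA was taken from gastrocnemius muscle of 7 male mice and sequenced by the authors as stranded, rRNA-depleted, single-end libraries. Reads were trimmed with Trimmomatic, aligned with STAR to GRCm38 and counted over exons by gene name with featureCounts on the reverse strand. The table used here holds the deposited counts, raw whole numbers per gene symbol. The deposited tables of the authors' normalized values and of their own comparisons (fold changes, p-values, pathway and ontology terms) were not used. Genes were kept by filterByExpr with a minimum count of 10, which left 14976 of 49568. Libraries were scaled by TMM and tested with edgeR 4.0.16 (limma 3.58.1, R 4.3.3) by the quasi-likelihood test, with 1 mean per age, all 7 libraries and Benjamini-Hochberg adjustment over all tested genes at 0.05. Standard errors are the size of the log2 fold change divided by the square root of F. With 2, 2 and 3 libraries there were 4 residual degrees of freedom. The test added 7.3 prior degrees of freedom from the spread shared across genes. So p-values rest on the spread between these mice, those of 4 weeks included, and on that shared spread. Library totals, 30836057 to 41784144 counts, set the precision, and values at few counts are less certain. DESeq2 1.42.0, limma-voom, other scalings, filters and left-out libraries were the alternatives. Scripts were tested on simulated counts. Gene symbols that a spreadsheet had turned into dates numbered 26, of which 21 were tested and none was called. Figures were drawn with matplotlib 3.10.9 in Python 3.11.15.

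Members and gene lists were chosen with earlier results of these data known. Named genes were the 20 called genes with the largest change and the 10 with the smallest p in each direction (mean of at least 1 CPM, no overlap of the ages), list members, genes the study names, and check genes. Kcne1l and Gm4841 fall outside this rule, as do the non-called genes Gm42418, Lars2, Gm28437, Adra2c, Rasd2, Mss51 and Ifi207, and were named after their values were seen. Coordinates, strands and overlaps are from GENCODE's GRCm38 annotation, with RefSeq for symbols absent from it, and sequences are from RefSeq (GRCm38.p6).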

Additional observations from a re-analysis of the deposited data

How the results depend on the processing

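In the 21 other fits, each of the 28 genes kept its direction wherever it was tested (Gm28653 was not tested with a minimum of 10 counts in every library). The count of called genes was 49 with upper quartile factors, 93 with library totals, 46 with mitochondrial transcripts left out, 47 with robust edgeR, 166 with DESeq2's Wald test (which also tested fewer genes, 11426) and 232 with no filter on low counts (26838 tested). Of these, higher genes made up 20.4%, 3.23%, 17.4%, 27.7%, 33.1% and 27.2%, beside 17.9% as reported. Removing trends with transcript length and GC content, added after seeing the data, gave 55 (27.3% higher). Adjusted p thresholds of 0.01 and 0.1 gave 8 and 87, and a fold over 2 as well gave 18. Leaving out 1 library at 6 or 8 weeks gave 10 to 77 calls. Without replicates 1 and 3 of 8 weeks, added after seeing the data, there were 32, of which 16 were higher (50%) and 10 were among the 28. With the replicate number as a block the count was 107 (36 higher, 71 lower), 27 of them among the 28 (Ift27 was not), but the labels do not pair mice across ages: same-numbered libraries had correlations of deviations of 0.00901 and 0.0368. DESeq2 size factors (33), limma-voom (29), the 5 libraries alone (26), a minimum of 10 counts in every library (28), legacy=FALSE (26) and leaving out a 4-week library (26 and 30) stayed within 1.5 times. The genes behind these counts differed: 20 of the 28 were called with the 5 libraries alone and without replicate 2 of 4 weeks, each with 1 higher gene (3.85%), and 23 without replicate 1 of 4 weeks (10% higher). Tuba4a, Pdzrn3, Pla2g7 and Gm25291 were lost in all 3 of these fits. Lists described above without an edgeR call had some with DESeq2's Wald test. Among them, 5 slow fiber genes and 4 fibrillar collagens were called lower. The embryonic and fetal, fatty acid, respiratory chain, and satellite cell lists had 2 lower members each. The causes of these differences were not tested. With 2 and 3 mice the smallest called change was 0.63 on the log2 scale, and a smaller change that was not called cannot be taken as absent.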

Other observations

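Several genes that were higher at 8 weeks in every mouse did not pass edgeR's test. Chac1, a glutathione-degrading enzyme of the integrated stress response, was at 6.50 and 7.02 CPM at 6 weeks and 17.4, 33.2 and 12.6 CPM at 8 weeks (log2 fold change 1.64, edgeR adjusted p = 0.105). Of the 23 endoplasmic reticulum chaperones and stress genes, 10 were higher without overlap (14.9% of all genes), none was called and the median was 0.10. Kdr, the VEGF receptor of endothelial cells, was at 22.97 and 16.7 CPM and then at 36.9, 38.6 and 26.3 CPM (0.78, adjusted p = 0.114). The Hippo pathway factor Tead1 was at 135 and 101 CPM and then at 171, 166 and 205 CPM (0.61, adjusted p = 0.114), and the Notch ligand Jag1 at 8.42 and 8.04 CPM and then at 11.8, 12.0 and 12.3 CPM (0.55, adjusted p = 0.0788). DESeq2's Wald test called Kdr (adjusted p = 0.00249), Tead1 (0.00314) and Jag1 (0.0379) higher, but not Chac1 (0.112). The 15 Schwann cell markers had a median of 0.28, with 6 higher without overlap. Clock genes were mixed: Per1 was at 46.1 and 42.8 CPM and then at 28.1, 26.0 and 32.2 CPM (-0.63, adjusted p = 0.0972), while Bhlhe40 was higher (0.52, adjusted p = 0.156), and the median of 20 was 0.17. DESeq2's Wald test called Per1 lower (adjusted p = 0.00232) and Bhlhe40 higher (0.0249).

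Mss51, a muscle mitochondrial protein, and Rasd2, a Ras-like GTPase, stood just outside the threshold in edgeR. Mss51 was at 9.60 and 6.09 CPM at 6 weeks and 19.7, 15.9 and 16.1 CPM at 8 weeks (1.14, edgeR adjusted p = 0.0518), and Rasd2 at 4.12 and 3.24 CPM and then at 6.39, 7.95 and 9.60 CPM (1.12, adjusted p = 0.0518). Both had been called higher from 4 to 6 weeks. Ifi207, a relative of Ifi205, was at 7.80 and 10.9 CPM and then at 5.42, 4.71 and 4.94 CPM (-0.90, edgeR adjusted p = 0.0518). DESeq2's Wald test called Mss51 (adjusted p = 2.39e-05) and Rasd2 (0.000802) higher and Ifi207 (0.0013) lower.

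Some genes differed in single mice. Scd1, a fatty acid desaturase, was at 318 and 171 CPM in replicates 1 and 2 of 8 weeks, 63.96 CPM in replicate 3, and 77.6 and 53.8 CPM at 6 weeks (1.49, edgeR adjusted p = 0.258). The 19 adipocyte markers, of which none was called, had a median relative level of 0.59, 0.41 and -0.53 on the log2 scale at 8 weeks and 0.21 and -0.21 at 6 weeks. Adra2c was at 7.48 CPM in replicate 2 of 6 weeks and at 0.186 to 0.378 CPM in the other libraries. Gm28437 was at 10.7, 0.708 and 2.18 CPM at 8 weeks and 0.0619 and 0.134 CPM at 6 weeks. Gm42418 was at 1823 CPM in replicate 1 of 8 weeks against 216 to 273 CPM in the other 8-week libraries and both at 6 weeks, and Lars2, at 96.0 CPM there, had 11.9 to 18.9 CPM in these.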
